A study of Mus musculus with 16 samples.

Results

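Follicular (FO) B cells were compared with marginal zone (MZ) B cells from the spleens of wild type (WT) C57BL/6 mice by RNA-seq. The comparison used 4 libraries, 2 of WT FO and 2 of WT MZ B cells, of the 16 samples of the series, and the 14761 of 27928 genes whose mean normalized count was at least 10 over the 8 RNA-seq libraries. The series was made to ask what the transcription factor TFII-I, encoded by Gtf2i, does in splenic B cells. Its other RNA-seq libraries came from FO and MZ B cells of mice that carry Gtf2i fl/fl and CD19cre+ (cKO), in which a B cell-specific Cre deletes the floxed alleles. The WT mice are labelled as WT with no further allele, the sources used here do not say whether they were littermates of the cKO, and the methods give the mice as 8 to 12 weeks old. Splenic B cells were enriched by magnetic removal of other cells and then sorted on CD21 and CD23, FO as CD21lo CD23hi and MZ as CD21hi CD23lo cells. Cr2, which encodes CD21, and Fcer2a, which encodes CD23, therefore describe the sort, and neither is a finding here. The labels do not say whether replicates 1 and 2 came from separate mice, so each p measures a spread between libraries, which may be technical. That spread was estimated over all 8 RNA-seq libraries, the cKO libraries included. The median standard deviation of a gene on the log2 scale was 0.166 in WT FO and 0.144 in WT MZ. It was 0.135 in cKO FO and 0.104 in cKO MZ.

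FO B cells recirculate through the blood, the lymph nodes and the splenic follicles, and with T cell help they form germinal centers. MZ B cells stay at the edge of the white pulp, where they sample antigens from the blood and respond within days, often without T cells, by making IgM. Their fate depends on Notch2 signaling, and their position depends on receptors for sphingosine 1-phosphate (S1P) and on integrins.

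The reads on genes numbered between 24467420 and 25083552 in the 4 WT libraries. Each library held B cell transcripts in both subsets, with Cd79a, a chain of the B cell receptor complex, at 29278 and 31129 normalized counts in FO and 27139.9 and 26703 in MZ. The markers Cd3e, Ly6g and Pf4 of other blood cells were at or near 0. Cd3e of T cells lay at 0 and 5.71 normalized counts in FO and 4.82 and 1.81 in MZ, Ly6g of neutrophils was at 0 in each WT library, and Pf4 of platelets was at 2 and 0 normalized counts in FO and 0 and 0 in MZ. The 16 T cell markers summed to 212 and 287 in FO and 516 and 379 in MZ, with Zap70 the largest of them in MZ. The 11 megakaryocyte and platelet markers summed to 1585 and 1333 in FO and 657 and 635 in MZ, of which Itgb3, an integrin chain, gave most, and the 4 of them that were tested lay above 0. The summed macrophage and monocyte markers were 1169.6 and 2091 in FO and 1341 and 3374 in MZ (normalized counts), higher in replicate 2 of each subset. Jchain of antibody-secreting cells stood apart in WT MZ replicate 2, with 619 and 968 normalized counts in FO and 305 and 3692 in MZ. Gtf2i, the gene deleted in the cKO, had 2039.8 and 1992 in FO and 2864 and 2471 in MZ in WT and 1523 and 1531 in FO and 1782 and 1889 in MZ of the cKO (normalized counts over the whole gene), lower in each cKO library than in the WT libraries of the same subset. Of the markers listed for other cells, Zap70, Trac, Prf1, Spic, Cd68, Sirpa and Cdh5 passed the test as higher in MZ, and Tfrc, Itgb3 and Ccr7 as higher in FO. The call of Trac was lost without any 1 of the 8 RNA-seq libraries, and that of Cd68 without any 1 library other than WT MZ replicate 2. The call of Tfrc was lost without WT FO replicate 1. The part of all these markers in the results below was not tested. In bulk RNA, fewer cells of a type and less RNA per cell cannot be told apart.

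By limma, 682 genes were higher in FO B cells and 1094 in MZ B cells, which are 4.62% and 7.41% of the 14761 genes tested. To be called, a gene needed a p of at most 0.05 after Benjamini-Hochberg adjustment and a difference of at least 1.5-fold on the scale of log2(normalized count + 1), which makes the differences of genes with low counts smaller. All differences below are FO minus MZ on that log2 scale, and the folds are the same differences on the linear scale. The MZ side held the larger differences. The median fold of the called genes was 2.80 on the MZ side and 2.12 on the FO side, 367 MZ genes and 101 FO genes differed at least 4-fold, and 63 MZ genes and 1 FO gene at least 16-fold. In 55 of the genes called higher in MZ each FO library held at most 3 reads, while in 6 of the genes called higher in FO each MZ library did. The median difference over all genes tested was 0.0048. The FO and MZ libraries did not overlap for 8168 of the genes tested (55.3%). A lack of overlap, given for genes below, is therefore common and is no test. The smallest two-sided p that an exact permutation test of 1 gene allows with 2 libraries against 2 is 0.333, and the p values given here come from the spread that limma estimates over all genes.

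**Figure D1:**
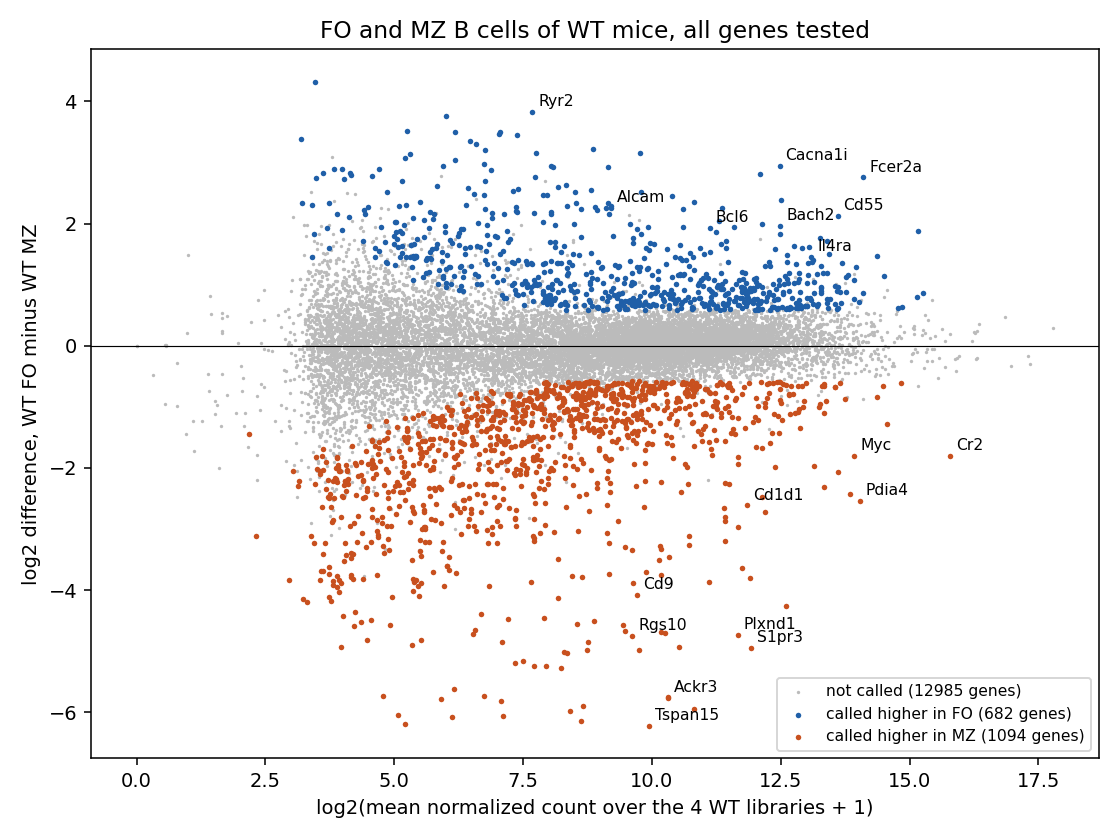
Each point is 1 of the 14761 genes tested, with the log2 of its mean normalized count plus 1 over the 4 WT libraries on the x axis and the log2 difference of FO minus MZ on the y axis. The points of the 1094 genes called higher in MZ reach further from 0 than those of the 682 genes called higher in FO, and 18 of the genes named in the text are labelled.

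The sort markers and 3 MZ markers that the sort did not use followed the labels. Cr2 had 23889.7 and 26803 normalized counts in FO and 88407 and 88275 in MZ, and Fcer2a had 24802 and 36159 normalized counts in FO and 3069 and 6412 in MZ. S1pr3 (ENSMUSG00000067586.4, chromosome 13 from 51408639 to 51422797 of GRCm38), a receptor for S1P, had 237 and 247 normalized counts in FO and 8563 and 6579 in MZ. Cd9 (ENSMUSG00000030342.8, chromosome 6 from 125460266 to 125494791), a tetraspanin, had 90.8 and 95.1 normalized counts in FO and 1519 and 1646 in MZ. Cd1d1, which presents lipids to NKT cells, had 968 and 1101 normalized counts in FO and 6577 and 6081 in MZ. The FO and MZ libraries did not overlap for any of these genes, and S1pr3 was 30.9-fold, Cd9 16.8-fold and Cd1d1 6.12-fold higher in MZ (limma adjusted p between 7.51e-06 and 7.06e-05). Cd1d2, a close copy of Cd1d1, was also called higher in MZ, at 9.98 and 9.51 normalized counts in FO and 72.2 and 96 in MZ, and reads shared by the copies make its value uncertain.

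The receptors that place B cells in the spleen were divided between the subsets. S1P is high in the blood, and its receptors hold MZ B cells near the marginal sinus. Of 18 genes of S1P handling, 3 (16.7%) were called higher in FO and 3 (16.7%) higher in MZ, beside 4.62% and 7.41% of all genes. S1pr1, which also drives the exit of lymphocytes from tissue, had 10489 and 9973 normalized counts in FO and 14316 and 16887 in MZ, a difference of -0.60 (limma adjusted p = 0.00801), while S1pr4 had 2311 and 3764 normalized counts in FO and 743 and 1465 in MZ, 2.83-fold higher in FO (limma adjusted p = 0.0233). S1pr1 and S1pr4 thus lay on opposite sides, each with no overlap between the subsets. Plpp3, a phosphatase that breaks down S1P, had 259 and 310.1 normalized counts in FO and 709.8 and 824 in MZ, and Spns2, an exporter of S1P, had 2562 and 1794 normalized counts in FO and 893 and 695 in MZ. Plpp3 was 2.69-fold higher in MZ and Spns2 2.72-fold higher in FO (limma adjusted p of 0.000623 and 0.00331). The call of S1pr1 was lost without WT FO replicate 2 or WT MZ replicate 2 (log2 difference -0.57 and -0.49, both under 1.5-fold), and that of S1pr4 without WT FO replicate 2 or WT MZ replicate 1 (limma adjusted p = 0.0961 and 0.0806).

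Among 27 homing and other G protein coupled receptors, 3 (11.1%) were called higher in FO and 5 (18.5%) higher in MZ, beside 4.62% and 7.41% of all genes. Ackr3, an atypical receptor that takes up the chemokine CXCL12, had 38.9 and 48.5 normalized counts in FO and 3100.3 and 1902 in MZ and was 54.6-fold higher in MZ. Ccr7, the receptor for the chemokines of the T cell zone, had 19574 and 10944 normalized counts in FO and 5789 and 3226 in MZ and was 3.39-fold higher in FO (limma adjusted p = 0.0107). Gpr174, a receptor for lysophosphatidylserine, had 5095 and 5052 normalized counts in FO and 2633 and 2616 in MZ and lay on the FO side. Gpr55, a receptor for lysophosphatidylinositol, had 30.9 and 65.6 normalized counts in FO and 275 and 537 in MZ, and P2ry12, a receptor for ADP, had 2.99 and 5.71 normalized counts in FO and 32.7 and 57.1 in MZ, both on the MZ side. Cxcr5, which leads B cells into follicles, had 6849.9 and 11532 normalized counts in FO and 8534 and 13001 in MZ, and the libraries of the subsets overlapped. Cxcr4, the signaling receptor for CXCL12, had 21690.3 and 14072 normalized counts in FO and 13761 and 5351 in MZ, a difference of 1.03 that did not pass (limma adjusted p = 0.174), although without WT MZ replicate 1 it did (difference of 1.71, limma adjusted p = 0.0301). The MZ count of these receptors ranged from 3 to 5 with each library left out in turn, and was 3 without WT FO replicate 1 or WT MZ replicate 2.

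Genes that turn G protein signals down differed in both directions, by wider margins on the MZ side. Of 18 regulators of G protein signaling and receptor kinases tested, 4 (22.2%) were called, each higher in MZ, beside 7.41% of all genes. The median of the list was 0.04 and turned to -0.02 when reads were scaled by library totals. Without WT MZ replicate 1 and without WT MZ replicate 2, 1 and 2 members were called higher in FO. Rgs10, which speeds the return of G proteins to rest, had 50.9 and 59.9 normalized counts in FO and 1512 and 1519.7 in MZ. Grk3, a kinase that marks active receptors for arrest, had 169.7 and 191 normalized counts in FO and 2238 and 1904 in MZ. Rgs3 had 362 and 335 normalized counts in FO and 855 and 888 in MZ, and Grk5 had 241 and 246 normalized counts in FO and 636 and 593 in MZ. The folds in favor of MZ were 27 for Rgs10, 11.4 for Grk3, 2.5 for Rgs3 and 2.52 for Grk5 (limma adjusted p between 9.81e-06 and 0.00226), with no overlap between the subsets. Grk2 and Grk6, other kinases of this group, were higher in FO by less than the fold cutoff. Grk2 had 26077 and 24112 normalized counts in FO and 19543 and 17896 in MZ (difference of 0.42, limma adjusted p = 0.0188), and Grk6 had 15358 and 16013 normalized counts in FO and 11199 and 11709.9 in MZ (difference of 0.45, limma adjusted p = 0.0118), with no overlap. Rap1gap, which switches off the integrin regulator Rap1, had 65.9 and 109 normalized counts in FO and 2361 and 2089 in MZ and was 25.9-fold higher in MZ (limma adjusted p = 3.18e-05).

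In the list of integrins and adhesion genes more members were called on the FO side. Of 33 members, 8 (24.2%) were called higher in FO and 3 (9.09%) higher in MZ, beside 4.62% and 7.41% of all genes, with a median of 0.20. Itgb7, whose protein pairs with integrin alpha 4 to bind the vessels of the gut, had 7206 and 7131 normalized counts in FO and 1527 and 2111 in MZ. Alcam, an adhesion molecule of the immunoglobulin superfamily, had 930.1 and 1025 normalized counts in FO and 171 and 243 in MZ, and Itga6, the integrin alpha 6 chain, had 908 and 965 normalized counts in FO and 130.02 and 259 in MZ. Each FO library was above each MZ library for these genes, by 3.99-fold for Itgb7, 4.77-fold for Alcam and 5.08-fold for Itga6 (limma adjusted p between 0.000258 and 0.00262). Itgal, the alpha chain of LFA-1, went the other way, at 7706 and 7864 normalized counts in FO and 13124 and 11576 in MZ, a difference of -0.66 (limma adjusted p = 0.00663) that fell below the fold cutoff without WT MZ replicate 1 (-0.57). Itga4, the partner of Itgb7, had 14852 and 13646 normalized counts in FO and 11259 and 11911 in MZ and did not pass (limma adjusted p = 0.067). Among adhesion genes outside the list, Cdh17, a cadherin, had 186 and 233 normalized counts in FO and 1882 and 2328 in MZ and was 10-fold higher in MZ, and L1cam, an adhesion molecule best known from neurons, had 669 and 636 normalized counts in FO and 138 and 136 in MZ and was 4.74-fold higher in FO. The median of the list turned to -0.02 under edgeR and DESeq2 and without WT FO replicate 2, and to -0.14 without WT MZ replicate 1, so it sets no direction for the list, and the MZ count fell to 1 without WT FO replicate 1, WT MZ replicate 1 or WT MZ replicate 2.

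Genes of the cytoskeleton were also mostly on the FO side. Of 56 genes of cytoskeleton and migration, 9 (16.1%) were called higher in FO and 2 (3.57%) higher in MZ, beside 4.62% and 7.41% of all genes. In this list 42 lay above 0, with a median of 0.25. Vim, the intermediate filament protein vimentin, had 10467 and 8841 normalized counts in FO and 1341 and 2546 in MZ. Flna, which crosslinks actin, had 30436 and 33358 normalized counts in FO and 13066 and 15799 in MZ, and Rhoh, a small GTPase of blood cells, had 4944 and 4511 normalized counts in FO and 2069 and 2363 in MZ. Dock11, an exchange factor for small GTPases, had 7018 and 7989.6 normalized counts in FO and 3485 and 4093 in MZ. Vim was 5.2-fold, Flna 2.22-fold, Rhoh 2.14-fold and Dock11 1.98-fold higher in FO (limma adjusted p between 0.000544 and 0.00133). Among other exchange factors for small GTPases, Arhgef18 had 12309.6 and 13289 normalized counts in FO and 3642 and 4811 in MZ and Arhgef3 had 7266 and 8692 normalized counts in FO and 2224 and 3147 in MZ, again with each FO library higher. Marcks, which binds actin and membrane phospholipids, was the called gene of the list with the smallest p and lay on the MZ side, at 1278 and 1449.9 normalized counts in FO and 7882 and 7359 in MZ, a 5.59-fold difference (limma adjusted p = 1.41e-05). Myof, a membrane protein of the ferlin family, and Nebl, an actin-binding protein, are on no list but were among the 20 genes with the smallest p on the MZ side. Myof had 668 and 560.4 normalized counts in FO and 13391 and 10346 in MZ, and Nebl had 82.8 and 104 normalized counts in FO and 2725 and 2976 in MZ, a 30.4-fold difference.

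Plexins and semaphorins, the guidance receptors and ligands known from axons and vessels, were called on the MZ side. Of 16 members tested, 6 were called, each higher in MZ, where 7.41% of all genes were called, and the median of the family was -0.58. Plxnd1 (ENSMUSG00000030123.15, chromosome 6 from 115954811 to 115995005), a receptor for semaphorins, had 205 and 267 normalized counts in FO and 6742 and 5834 in MZ. Nrp2, a co-receptor for semaphorins, had 17 and 45.7 normalized counts in FO and 793 and 878 in MZ. Sema7a, a membrane-anchored semaphorin, had 485 and 529 normalized counts in FO and 8314 and 6069 in MZ, and its receptor Plxnc1 had 2591 and 2968 normalized counts in FO and 7640.5 and 7279.5 in MZ. Sema4b had 4196 and 4098 normalized counts in FO and 9550.4 and 8518 in MZ, and Sema6b had 32.9 and 39 normalized counts in FO and 351 and 229 in MZ. Each MZ library was above each FO library for all 6 of these genes, by 28.8-fold for Nrp2, 26.7-fold for Plxnd1, 14-fold for Sema7a, 7.72-fold for Sema6b, 2.69-fold for Plxnc1 and 2.17-fold for Sema4b (limma adjusted p between 7.51e-06 and 0.000334). The count of 6 was the same with each library left out in turn. With the replicate number as a block, 1 member was also called higher in FO. Sema4d, a semaphorin of resting lymphocytes, had 6087 and 7053 normalized counts in FO and 7009 and 8058 in MZ and did not pass.

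The subsets also differed in what they carry to bind complement, antibody, lipids and other ligands. Cd55, which protects cells from complement by speeding the decay of its convertases, had 19232 and 21249.8 normalized counts in FO and 3925 and 5446 in MZ and was 4.37-fold higher in FO. Cd59a, which blocks the final pore of complement, had 3.99 and 4.76 normalized counts in FO and 74.2 and 79.7 in MZ, and Cfp, the complement activator properdin, had 469 and 679 normalized counts in FO and 2263 and 3242 in MZ. Cd59a was 14.5-fold and Cfp 4.79-fold higher in MZ, so the complement regulators Cd55 and Cd59a lay on opposite sides (limma adjusted p between 0.00023 and 0.000986). Reads may be shared between Cd59a and its copy Cd59b, which also passed on the MZ side. Fcrl5, an Fc receptor-like protein that marks MZ B cells, had 418 and 616 normalized counts in FO and 5614 and 7167 in MZ, and Fcgrt, the neonatal Fc receptor that salvages IgG, had 831 and 1122 normalized counts in FO and 157 and 249.96 in MZ. Fcrl5 was 12.5-fold higher in MZ and Fcgrt 4.85-fold higher in FO (limma adjusted p of 7.06e-05 and 0.000899). Cd36, a scavenger receptor for lipids, had 616 and 884 normalized counts in FO and 5198 and 6373 in MZ and was 7.79-fold higher in MZ.

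Of 19 tetraspanins, 5 (26.3%) were called, each higher in MZ, beside 7.41% of all genes, Cd9 (above) among them. Tspan15, a partner of the protease ADAM10, had 36.9 and 14.3 normalized counts in FO and 2649.6 and 1229 in MZ and, at 75-fold, the largest fold of all called genes. Cd81, a tetraspanin found on many cell types, had 2923 and 3003 normalized counts in FO and 5616 and 5179 in MZ, and Tspan31 had 315 and 423 normalized counts in FO and 876 and 855 in MZ. The median of the family was -0.06, and the MZ count was lower with each library left out in turn.

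The class II genes leaned to FO without most of them passing. Of 25 antigen presentation genes, 4 (16%) were called higher in FO and 3 (12%) higher in MZ, beside 4.62% and 7.41% of all genes. H2-Ob, the chain of the H2-O protein that restrains peptide loading, had 49799 and 51020.0 normalized counts in FO and 26988 and 28595 in MZ, and March1, a ubiquitin ligase that removes class II from the surface, had 8322 and 8559 normalized counts in FO and 3994 and 5133 in MZ. Both were higher in FO, H2-Ob by 1.81-fold and March1 by 1.86-fold (limma adjusted p of 0.00119 and 0.00395). H2-Aa, a class II chain, had 138652 and 136344 normalized counts in FO and 101166 and 96710.2 in MZ, a difference of 0.48 under the fold cutoff, and Cd74, the invariant chain, had 263445 and 234154 normalized counts in FO and 222951 and 184620.0 in MZ. The libraries of both genes did not overlap, but the difference of Cd74 did not pass (limma adjusted p = 0.291).

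Among costimulatory and inhibitory surface proteins, members were called on both sides. Of 38 tested, 5 (13.2%) were called higher in FO and 8 (21.1%) higher in MZ, beside 4.62% and 7.41% of all genes. Lair1, an inhibitory receptor for collagen, had 42.9 and 49.5 normalized counts in FO and 520.1 and 541 in MZ, and Lilrb4a, an inhibitory receptor with close paralogs, had 139.7 and 88.5 normalized counts in FO and 1351 and 648 in MZ. Cd200, a ligand that restrains myeloid cells, had 1354 and 1649.7 normalized counts in FO and 371 and 590.5 in MZ. Lair1 was 11.3-fold and Lilrb4a 8.35-fold higher in MZ, and Cd200 3.19-fold higher in FO (limma adjusted p between 3.01e-05 and 0.00249). Cd80 and Cd86, which costimulate T cells, were chosen after their values were seen. Cd80 had 30.9 and 41.9 normalized counts in FO and 101 and 217 in MZ, and Cd86 had 1176 and 915 normalized counts in FO and 2024 and 1857 in MZ. Cd80 was 4.04-fold and Cd86 1.87-fold higher in MZ, and each MZ library was above each FO library (limma adjusted p of 0.0121 and 0.0172). The call of Cd80 was lost without WT FO replicate 1 (limma adjusted p = 0.0632), and that of Cd86 without WT FO replicate 2 or WT MZ replicate 1 (0.0750 and 0.0756). Cd22, an inhibitory co-receptor of the B cell receptor, had 37086 and 45053 normalized counts in FO and 41818 and 42672 in MZ, with overlap between the subsets. The FO count fell to 2 without WT FO replicate 2 or WT MZ replicate 1, and to 3 without either cKO FO library, which enters the fit only through the shared spread.

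**Figure D2:**
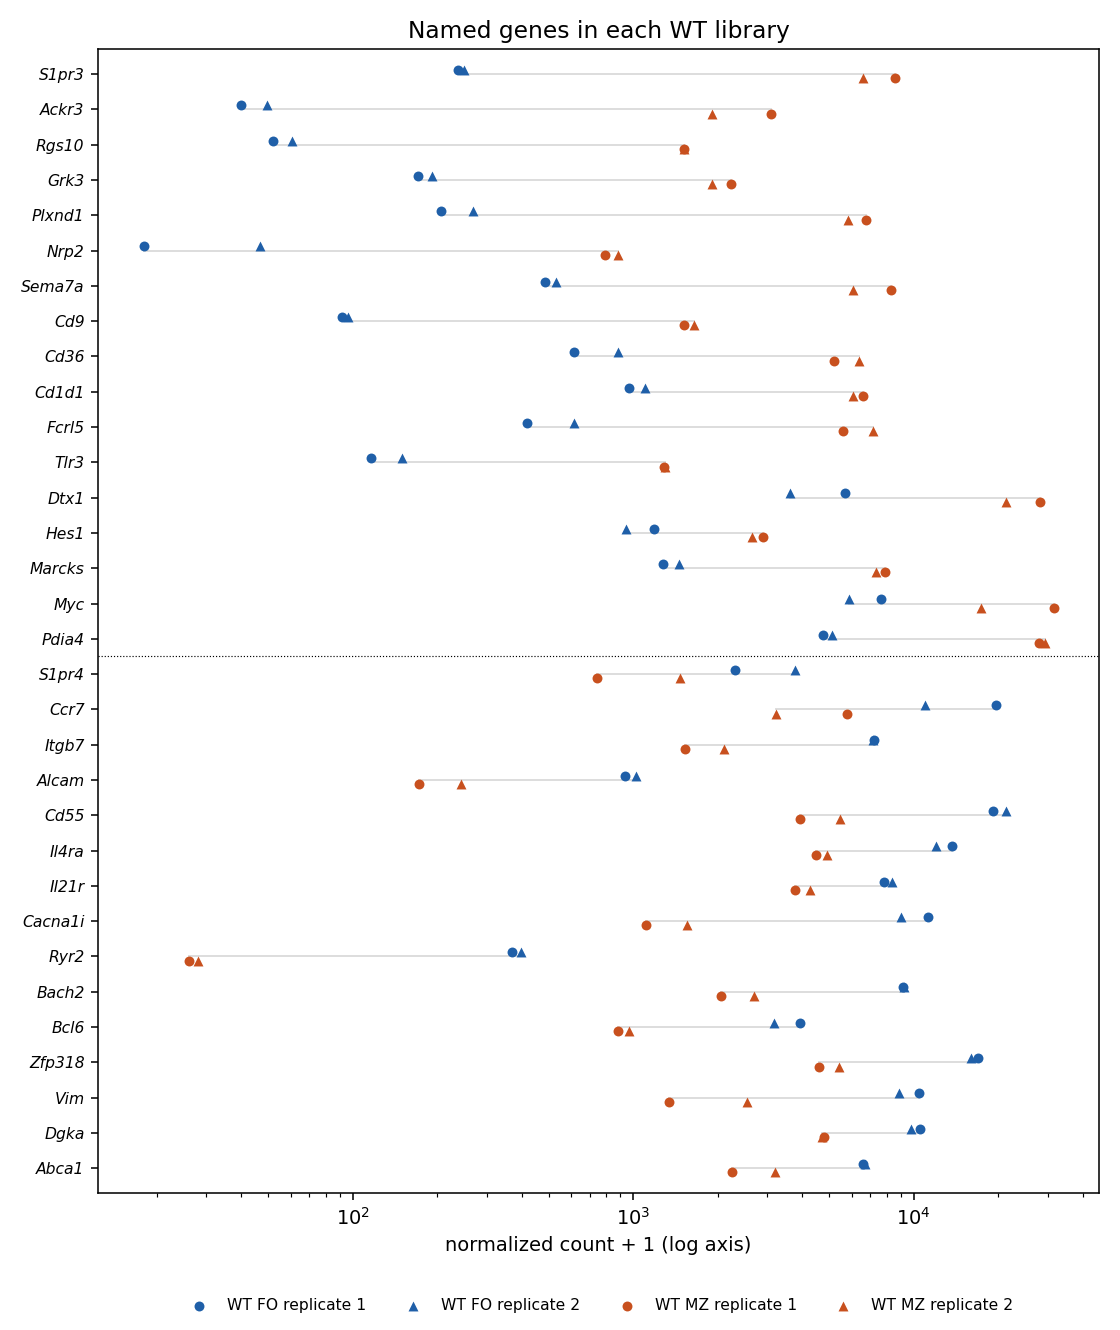
Each row is a gene and each point its normalized count plus 1 in 1 WT library (log axis), with FO in blue, MZ in orange, circles for replicate 1 and triangles for replicate 2. Above the dotted line are genes called higher in MZ and below it genes called higher in FO, and in no row do the points of the subsets overlap.

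Notch2 signaling drives the MZ fate, and known Notch targets were called higher in MZ. Of 38 genes of the pathway, 6 (15.8%) were called higher in MZ and 3 (7.89%) higher in FO, beside 7.41% and 4.62% of all genes. The median of the list was -0.09. Dtx1, a Deltex ubiquitin ligase and Notch target, had 5705 and 3609 normalized counts in FO and 28092 and 21350.4 in MZ, while its relative Dtx4 had 156 and 199.8 normalized counts in FO and 758 and 700.1 in MZ. Dtx3, of the same family, had 792 and 877 normalized counts in FO and 1954 and 1675 in MZ. Hes1, a repressor induced by Notch, had 1179.6 and 945 normalized counts in FO and 2898 and 2642 in MZ. The folds in favor of MZ were 5.4 for Dtx1, 4.11 for Dtx4, 2.17 for Dtx3 and 2.62 for Hes1 (limma adjusted p between 0.000245 and 0.001). Lfng, the Fringe enzyme that adds sugars to Notch receptors, was higher in FO, at 1809 and 1946 normalized counts in FO and 540.3 and 724 in MZ, and so was Maml3, a Mastermind co-activator of Notch, at 469 and 394 normalized counts in FO and 171 and 165 in MZ. Lfng was 3-fold and Maml3 2.55-fold higher in FO, with no overlap (limma adjusted p of 0.000655 and 0.00383). The receptor gene Notch2 itself had 16652 and 16302 normalized counts in FO and 13530.0 and 14727 in MZ, a difference of 0.22 that did not pass (limma adjusted p = 0.187). The other called members, chosen after their values were seen, were the Notch ligand gene Dll1, with 187 and 127 normalized counts in FO and 36.6 and 38.9 in MZ, and the repressors Heyl, with 0.998 and 1.9 normalized counts in FO and 29.9 and 34.4 in MZ, and Hes5, with 38.9 and 45.7 normalized counts in FO and 122 and 261 in MZ. Dll1 lay on the FO side and Heyl and Hes5 on the MZ side (limma adjusted p between 0.00464 and 0.0128), and the call of Hes5 was lost without WT FO replicate 1 or WT MZ replicate 2 (limma adjusted p = 0.0620 and 0.0556).

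Toll-like receptors and interferon-induced GTPases passed on the MZ side. Of 30 Toll-like receptors and adaptors, 5 (16.7%) were called, each higher in MZ, beside 7.41% of all genes. Tlr3, the receptor for double-stranded RNA, had 115 and 148 normalized counts in FO and 1291 and 1298 in MZ. Ly96, which encodes the MD-2 partner of the lipopolysaccharide receptor, had 56.9 and 79.9 normalized counts in FO and 281 and 275 in MZ, and Cd180, a related receptor of B cells, had 5929 and 6979 normalized counts in FO and 13582 and 12241 in MZ. Tlr7, the receptor for single-stranded RNA, had 1308 and 2521 normalized counts in FO and 3565 and 4719 in MZ. Tlr3 was 9.85-fold, Ly96 4.08-fold, Cd180 2-fold and Tlr7 2.26-fold higher in MZ (limma adjusted p between 3.18e-05 and 0.0266), with no overlap. The call of Tlr7 was lost without WT FO replicate 1, WT MZ replicate 2 or any cKO library (limma adjusted p between 0.0518 and 0.111), and the count of the list fell to 3 without WT FO replicate 1. Without WT FO replicate 2 or WT MZ replicate 2, 1 member was called higher in FO.

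All 9 guanylate-binding proteins tested, GTPases that interferon induces and that attack vacuoles of microbes, lay below 0, with a median of -0.89. Of them, 5 (55.6%) were called higher in MZ, beside 7.41% of all genes. Gbp8 had 135 and 159 normalized counts in FO and 598 and 594 in MZ, and Gbp7 had 444 and 684 normalized counts in FO and 1125 and 1535 in MZ, a 4.05-fold and a 2.38-fold difference (limma adjusted p of 0.00047 and 0.00801). Without WT FO replicate 1 the count was 3 and without WT MZ replicate 2 it was 2, and reads shared between these paralogs make single members uncertain. Of 44 interferon-stimulated genes, which include several of this family, 6 were called higher in MZ and 1 higher in FO, and the MZ count was 11 without WT FO replicate 2. The 6 and 1 called members were 13.6% and 2.27% of those tested, beside 7.41% and 4.62% of all genes. Isg15, a ubiquitin-like protein, had 116 and 185 normalized counts in FO and 497 and 558 in MZ and was 3.58-fold higher in MZ. Samhd1, which limits the pool of nucleotides for DNA, had 17845 and 21659 normalized counts in FO and 7545 and 10229 in MZ and was 2.24-fold higher in FO (limma adjusted p of 0.00218 and 0.00278).

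Genes of B cell receptor signaling went both ways. Of 60 members, 6 (10%) were called higher in FO and 8 (13.3%) higher in MZ, beside 4.62% and 7.41% of all genes, and the median was -0.04. Blk, a Src family kinase of B cells, had 14274 and 16163 normalized counts in FO and 27437 and 26754 in MZ. Dgka, a kinase that removes diacylglycerol and so limits signaling, had 10530.3 and 9789.6 normalized counts in FO and 4801 and 4720.2 in MZ, and Orai2, a subunit of the calcium entry channel, had 2389 and 2846 normalized counts in FO and 857 and 1067 in MZ. Blk was 1.78-fold higher in MZ, and Dgka 2.13-fold and Orai2 2.73-fold higher in FO (limma adjusted p between 0.00021 and 0.00141). Syk, the kinase that binds the receptor, had 53244 and 32824 normalized counts in FO and 38912 and 31742 in MZ and did not pass. The FO count fell to 2 without WT FO replicate 2 and to 3 without WT MZ replicate 1, and the MZ count to 4 without WT MZ replicate 1.

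Ion channels for calcium differed by wide margins in both directions. Of 33 genes of calcium channels and entry, 5 (15.2%) were called higher in FO and 4 (12.1%) higher in MZ, beside 4.62% and 7.41% of all genes. Cacna1i, a T-type voltage-gated channel, had 11197 and 9034 normalized counts in FO and 1105 and 1547 in MZ, and Ryr2, the ryanodine receptor best known from the heart, had 368 and 396 normalized counts in FO and 25 and 27.2 in MZ. On the MZ side, Trpm2, a channel opened by ADP-ribose, had 49.9 and 59 normalized counts in FO and 1574 and 1102 in MZ. Cacna1e, an R-type channel, had 4148 and 4379 normalized counts in FO and 11017 and 10649 in MZ, and the channel subunit Cacnb4 had 28.9 and 20 normalized counts in FO and 196 and 229 in MZ. Cacna1i was 7.69-fold and Ryr2 14.1-fold higher in FO, while Trpm2 was 23.9-fold, Cacnb4 8.49-fold and Cacna1e 2.54-fold higher in MZ (limma adjusted p between 5.84e-05 and 0.000623). Each subset thus had voltage-gated channel genes on its own side.

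The gene of the IgD heavy chain, Ighd, was called higher in FO. It had 39224 and 75630.0 normalized counts in FO and 9742 and 22649 in MZ, a 3.67-fold difference (limma adjusted p = 0.0195), and each FO library was above each MZ library. Zfp318, which is needed to make the transcript of IgD, had 16963 and 15965 normalized counts in FO and 4609.5 and 5409 in MZ and was 3.3-fold higher in FO (limma adjusted p = 0.000206). Ighm had 122725 and 174072 normalized counts in FO and 142822 and 225292 in MZ, with overlap between the subsets. Replicate 2 was above replicate 1 in both subsets for Ighd and Ighm, and the call of Ighd was lost without WT FO replicate 2 or WT MZ replicate 1 (limma adjusted p = 0.0789 and 0.0612).

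Regulators and markers of plasma cells and germinal centers were called on both sides. Of 25 tested, 4 (16%) were called higher in FO and 3 (12%) higher in MZ, beside 4.62% and 7.41% of all genes, with a median of -0.12. Bach2 (ENSMUSG00000040270.16, chromosome 4 from 32238804 to 32586108), a repressor of Prdm1, had 9164 and 9209 normalized counts in FO and 2053 and 2685 in MZ. Bcl6, the master repressor of germinal center B cells, had 3925 and 3182 normalized counts in FO and 884 and 967 in MZ. From the wider list of B cell transcription factors, Lmo2 had 6503 and 7707 normalized counts in FO and 2451 and 3043 in MZ, and Mef2c, which acts in B cell activation, had 15571 and 16243 normalized counts in FO and 7918 and 8329 in MZ. Bach2 was 3.91-fold, Bcl6 3.82-fold, Lmo2 2.59-fold and Mef2c 1.96-fold higher in FO (limma adjusted p between 0.000163 and 0.00165). Prdm1, which encodes the plasma cell factor Blimp-1, had 153 and 77.1 normalized counts in FO and 594 and 279 in MZ and was 3.73-fold higher in MZ (limma adjusted p = 0.0246), but the call was lost without WT FO replicate 2, WT MZ replicate 1 or either cKO MZ library (limma adjusted p between 0.0515 and 0.106). Mzb1, an endoplasmic reticulum protein of MZ and B-1 cells that helps to assemble IgM, had 145 and 167 normalized counts in FO and 883 and 1038 in MZ and was 6.12-fold higher in MZ. The plasma cell marker Sdc1 (CD138), with 331 and 392 normalized counts in FO and 27 and 101 in MZ, was 6.78-fold higher in FO (limma adjusted p = 0.0107), as was Fkbp11, a chaperone of secretory cells, with 96.8 and 89.4 normalized counts in FO and 23.1 and 46.2 in MZ (2.79-fold, limma adjusted p = 0.0388). The plasma cell markers Derl3 and Ighg2b went the other way. Derl3 had 74.8 and 128 normalized counts in FO and 270 and 585 in MZ, and Ighg2b had 680 and 670 normalized counts in FO and 1547 and 2368 in MZ. Derl3 was 4.02-fold and Ighg2b 2.83-fold higher in MZ (limma adjusted p of 0.0127 and 0.0197). The MZ count of the plasma cell markers moved without WT FO replicate 1 or WT FO replicate 2. The call of Fkbp11 was lost without any 1 library other than WT MZ replicate 2 (limma adjusted p between 0.0503 and 0.170). Irf4, which both fates use, had 28655 and 10907 normalized counts in FO and 37342 and 13512 in MZ, higher in replicate 1 of each subset, and Xbp1, the factor of the secretory apparatus, had 2764 and 2520.2 normalized counts in FO and 2947 and 2789 in MZ. Neither passed the test.

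Of 57 B cell transcription factors in all, 12 (21.1%) were called higher in FO and 5 (8.77%) higher in MZ, beside 4.62% and 7.41% of all genes. The median of the list was 0.18. Id2, an inhibitor of E proteins, had 191 and 250.2 normalized counts in FO and 846 and 973 in MZ and was 4.14-fold higher in MZ. Klf3, a repressor that shapes the balance of the subsets, had 5516 and 5903 normalized counts in FO and 2427 and 2879.9 in MZ and was 2.16-fold higher in FO, while its relative Klf5 had 2.99 and 2.85 normalized counts in FO and 50.1 and 28.1 in MZ and was at the floor of 3 reads in each FO library, at least 13.4-fold higher in MZ. Klf2, which restrains the MZ fate, had 25736 and 16009.6 normalized counts in FO and 14383 and 5618 in MZ. Its difference of 1.18 did not pass (limma adjusted p = 0.0933), with replicate 1 far above replicate 2 in both subsets, and it passed without WT MZ replicate 1 (1.85, limma adjusted p = 0.00792). Irf2 had 4959.8 and 4702 normalized counts in FO and 2576 and 2659 in MZ and was the only interferon regulatory factor called of 10 tested, 1.84-fold higher in FO. Pax5, which keeps B cell identity, had 36360.0 and 39413 normalized counts in FO and 31322 and 31598 in MZ and did not pass. Ahr, a receptor for dietary and microbial ligands, was chosen after its values were seen, had 398 and 191 normalized counts in FO and 1410.0 and 1325 in MZ and was 4.94-fold higher in MZ (limma adjusted p = 0.00329). The MZ count of the list was 3 without WT MZ replicate 2.

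Cytokine receptors were called in both directions. Of 37 receptor chains, 7 (18.9%) were called higher in FO and 6 (16.2%) higher in MZ, beside 4.62% and 7.41% of all genes. Il4ra, the chain that binds IL-4 and IL-13, had 13627 and 11974 normalized counts in FO and 4469 and 4888 in MZ. Il21r, the receptor for the T follicular helper cytokine IL-21, had 7824 and 8384 normalized counts in FO and 3756 and 4257 in MZ. Il27ra, for IL-27, had 3391 and 3620.0 normalized counts in FO and 1919 and 2023 in MZ, and Ifnar1, for type I interferon, had 4576 and 4882 normalized counts in FO and 2622 and 2913 in MZ. These chains were 2.73-fold, 2.03-fold, 1.78-fold and 1.71-fold higher in FO in that order (limma adjusted p between 0.000163 and 0.00147). On the MZ side, Csf2rb, the shared chain of the receptors for IL-3, IL-5 and GM-CSF, had 250.5 and 392 normalized counts in FO and 2778 and 3296 in MZ, and Il9r, the receptor for IL-9, had 3963 and 3423 normalized counts in FO and 15480.3 and 13458 in MZ. Csf2rb was 9.63-fold and Il9r 3.92-fold higher in MZ (limma adjusted p of 0.000224 and 0.000251). Reads may be shared between Csf2rb and a nearby copy of it.

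Downstream of these receptors, Jak1, the kinase of many cytokine receptors, had 22037 and 19440.3 normalized counts in FO and 12706 and 12607 in MZ and was 1.64-fold higher in FO, while Cish, a feedback inhibitor that STAT5 induces, had 9.98 and 6.66 normalized counts in FO and 105 and 67 in MZ and was 9.26-fold higher in MZ (limma adjusted p of 0.00265 and 0.0035). In the TNF receptor family, Ngfr, the low-affinity receptor for nerve growth factor, had 331 and 278 normalized counts in FO and 19.3 and 37.1 in MZ and was 11-fold higher in FO. Tnfrsf21, a death domain receptor, had 86.8 and 74.2 normalized counts in FO and 826 and 531 in MZ and was 8.16-fold higher in MZ. Tnfrsf13c, the BAFF receptor on which both subsets depend, had 7403 and 10342 normalized counts in FO and 6199.6 and 7174 in MZ and did not pass (limma adjusted p = 0.144), except without WT FO replicate 1 (0.63, limma adjusted p = 0.0303). Traf1, an adaptor that NF-kB induces, had 1948 and 1448 normalized counts in FO and 4884 and 3851 in MZ and was 2.58-fold higher in MZ, whereas Nfkbia, the inhibitor of NF-kB, had 6009 and 5511 normalized counts in FO and 2556 and 3281 in MZ and was 1.99-fold higher in FO (limma adjusted p of 0.00197 and 0.00399). Rel, an NF-kB subunit of B cells, had 32109 and 12761 normalized counts in FO and 29615 and 9964 in MZ, higher in replicate 1 of each subset.

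Many genes of mitosis were called higher in MZ. Of 40 mitosis genes, 19 were called, each higher in MZ, where 7.41% of all genes were called, and 37 lay below 0, with a median of -1.78 beside 0.0048 over all genes. Bub1, a kinase of the spindle checkpoint, had 14 and 40.9 normalized counts in FO and 136 and 283 in MZ, and Ttk, which acts in the same checkpoint, had 11 and 27.6 normalized counts in FO and 65.5 and 133 in MZ. Espl1, the separase that cuts cohesin, had 22 and 56.1 normalized counts in FO and 165 and 400.3 in MZ, and Cdca3, which triggers entry into mitosis, had 55.9 and 93.2 normalized counts in FO and 213 and 401 in MZ. Mybl2, the B-Myb subunit of the complex that turns on these genes, had 49.9 and 71.4 normalized counts in FO and 241 and 274 in MZ. For all 5 the MZ libraries lay above the FO libraries, by 7.86-fold for Bub1, 7.12-fold for Espl1, 5.1-fold for Ttk, 4.25-fold for Mybl2 and 4.01-fold for Cdca3 (limma adjusted p between 0.00226 and 0.0232). Mki67, the proliferation marker Ki-67, was chosen after its values were seen and had 275 and 655 normalized counts in FO and 1339 and 3777 in MZ. Within each subset replicate 2 was above replicate 1 for most of these genes, and WT MZ replicate 2 was the highest library for Bub1, Ttk, Espl1, Cdca3, Mybl2 and Mki67. The count rests on few libraries: it was 1 without WT FO replicate 1 or WT MZ replicate 2, 7 without either cKO FO library, and ranged from 1 to 26 with each library left out in turn. Limma fitted on the 4 WT libraries alone called 1 and limma without the filter on low counts 10, while edgeR called 17, and DESeq2 32 on 8 libraries and 29 on the 4 WT libraries. Bub1, Ttk, Espl1 and Cdca3 lost their limma calls without WT FO replicate 1 or WT MZ replicate 2 (limma adjusted p between 0.0847 and 0.111), as did Mki67, which was also lost without either cKO FO library (limma adjusted p between 0.0658 and 0.164), while Mybl2 kept its call. In the cKO libraries, which are other samples but share the spread of the fit, 22 of the genes of the list were called. Each was higher in MZ, where 8.18% of all genes were called, and the median of the list was -1.76. The cKO MZ libraries, replicates 1 and 2, stood apart, with 230 and 86.6 normalized counts for Bub1, 312 and 104 for Espl1 and 343 and 150 for Cdca3. Germinal center B cells and early plasma cells divide. The 10 markers of germinal center B cells summed to 494 and 789.6 in FO and 633 and 1235 in MZ. Of them 1 (10%), Gpr55 (above), was called higher in MZ, near the 7.41% of all genes. The 12 plasma cell markers summed to 5883 and 5439 in FO and 5995 and 11376 in MZ. Of the 11 tested, 3 (27.3%) were called higher in MZ and 2 (18.2%) higher in FO, beside 7.41% and 4.62% of all genes. Both sums (normalized counts) were thus highest in WT MZ replicate 2, as were the mitosis genes named, and their part in the result was not tested.

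**Figure D3:**
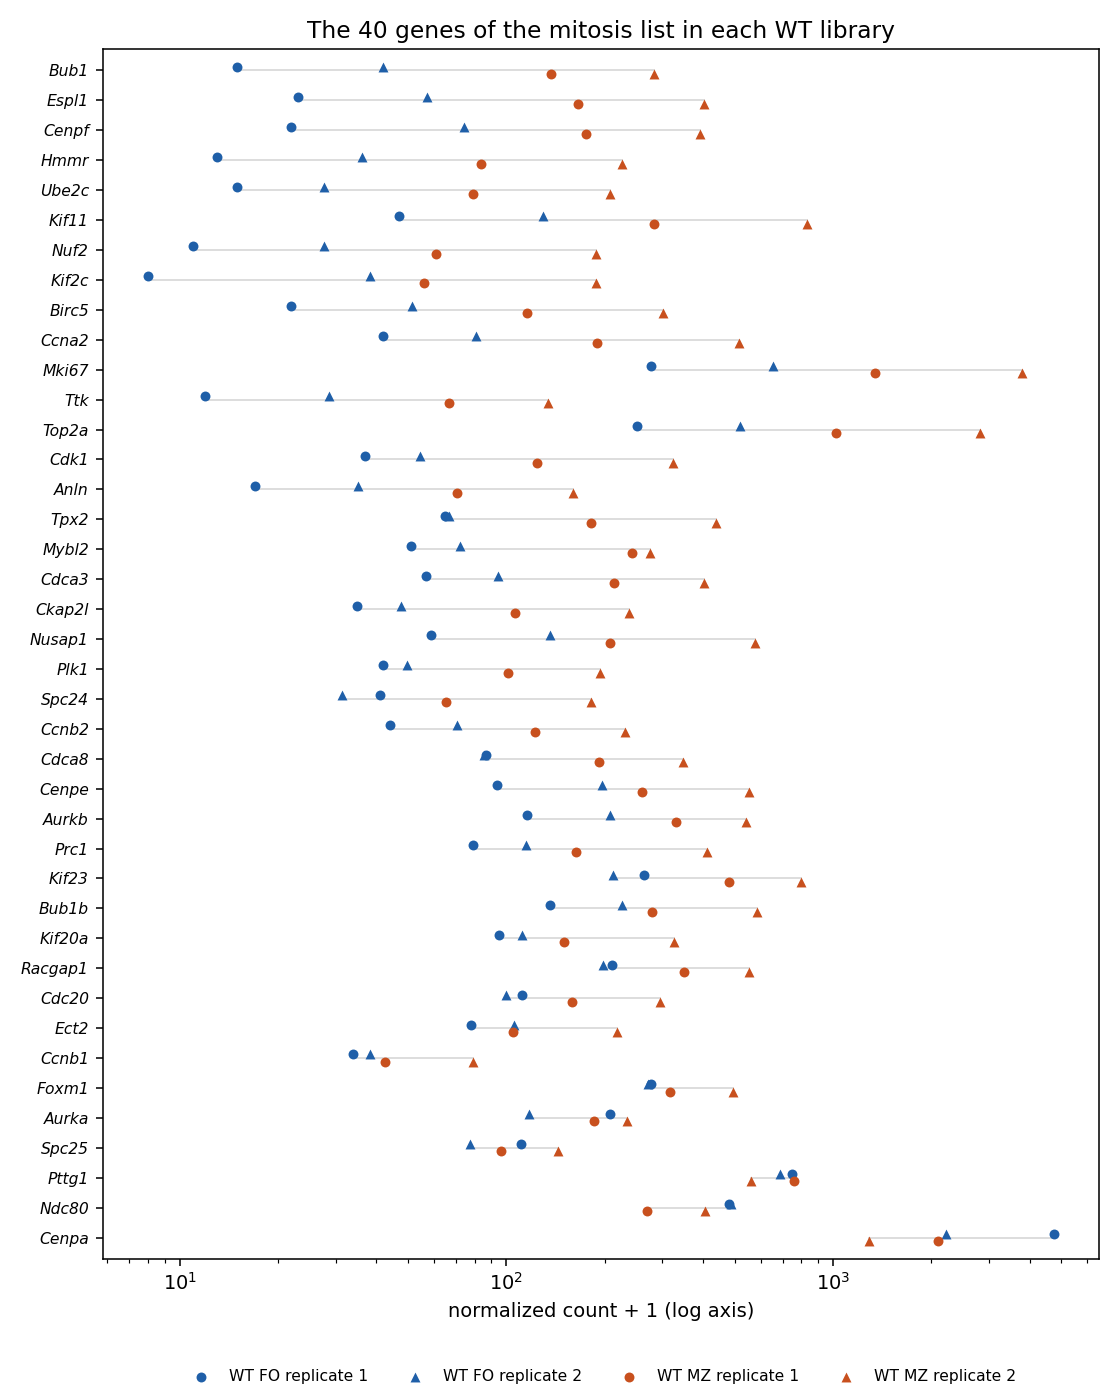
Each row is 1 of the 40 genes of the mitosis list, ordered by its log2 difference, and each point is its normalized count plus 1 in 1 WT library (log axis), with FO in blue, MZ in orange, circles for replicate 1 and triangles for replicate 2. In 37 rows the mean of MZ is higher, and replicate 2 lies above replicate 1 in most rows of MZ.

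Promoters of mitosis genes are known to hold CCAAT boxes and the cell cycle homology region (CHR), TTTGAA, near the start of transcription. The bases next to the RefSeq start (GRCm38.p6, read 5′ to 3′ on the strand of the gene) are shown for called genes of the list, with matches to the CHR, to CCAAT and to the reverse complement of each in capitals. Espl1, Cdca3 and Bub1 were named above, and Kif11, Ube2c and Top2a were chosen after their values were seen because their windows hold both motifs.
Espl1, chr15:102296173-102296292, plus strand: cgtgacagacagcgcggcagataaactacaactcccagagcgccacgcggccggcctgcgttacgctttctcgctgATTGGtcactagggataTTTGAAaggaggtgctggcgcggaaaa
Kif11, chr19:37376262-37376381, plus strand: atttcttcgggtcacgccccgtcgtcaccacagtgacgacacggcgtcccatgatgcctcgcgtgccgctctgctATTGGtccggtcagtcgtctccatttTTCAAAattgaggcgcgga
Ube2c, chr2:164769809-164769928, plus strand: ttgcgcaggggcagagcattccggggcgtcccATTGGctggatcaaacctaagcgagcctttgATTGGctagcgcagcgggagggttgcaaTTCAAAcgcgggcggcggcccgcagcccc
Top2a, chr11:99024190-99024309, minus strand: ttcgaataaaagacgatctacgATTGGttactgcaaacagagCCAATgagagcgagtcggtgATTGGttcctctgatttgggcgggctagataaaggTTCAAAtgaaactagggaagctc
Cdca3, chr6:124830056-124830175, plus strand: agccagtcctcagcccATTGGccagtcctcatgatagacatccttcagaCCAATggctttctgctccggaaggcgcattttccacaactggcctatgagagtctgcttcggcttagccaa
Bub1, chr2:127831860-127831979, minus strand: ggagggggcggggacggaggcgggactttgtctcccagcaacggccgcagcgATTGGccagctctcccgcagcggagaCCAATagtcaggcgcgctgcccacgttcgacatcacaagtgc
In Espl1 the CHR match began 27 bases before the start and a CCAAT match 44 bases before it, in Kif11 19 and 45 bases, in Ube2c 29 and 57 bases, and in Top2a 23 and 58 bases, so that each CHR match lay between the start and a CCAAT match. Cdca3 and Bub1 held a pair of CCAAT matches each and no TTTGAA in these windows. The Cdca3 window precedes the RefSeq start but lies inside the gene in GENCODE M21, which starts at 124829547. Its letters therefore need not be those before the GENCODE start. The 250 bases before a start were searched on both strands, and the motifs did not overlap in the windows shown. A CCAAT match was in a promoter of 26 of the 34 mitosis genes found in the table of promoters (76.5%), of 13 of the 16 called (81.2%) and of 40.7% of the 9764 tested genes found. A CHR match was in 12 of the 34 (35.3%), 5 of the 16 (31.2%) and 13.2% of the 9764. Among all genes called higher in MZ the shares were 41.9% and 14.2%, near those of all tested genes. Of all 32851 windows of the table, CCAAT was found in 11120 and the CHR in 5252. A match is a description of the letters and not of a bound factor. The calls of Kif11, Ube2c and Top2a were each lost without WT FO replicate 1, WT MZ replicate 2 or either cKO FO library, and that of Ube2c also without WT FO replicate 2. Kif11 had 45.9 and 128 normalized counts in FO and 282 and 830.5 in MZ, Ube2c had 14 and 26.6 normalized counts in FO and 78 and 206 in MZ, and Top2a had 250.5 and 519 normalized counts in FO and 1020.0 and 2812 in MZ.

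The regulators of entry into the cell cycle were mixed. Of 29 genes of the E2F and Rb families and their partners, 7 (24.1%) were called higher in MZ and 3 (10.3%) higher in FO. Of all genes, 7.41% and 4.62% were called, and the median of the list was 0.04. E2f1, an activator of S phase genes, had 133 and 147 normalized counts in FO and 390.1 and 399 in MZ, and Tfdp1, its binding partner, had 249 and 356 normalized counts in FO and 780.1 and 999.8 in MZ. Cdkn2d, an inhibitor of cyclin-dependent kinases, had 884 and 973 normalized counts in FO and 200.3 and 352 in MZ. E2f1 was 2.82-fold and Tfdp1 2.96-fold higher in MZ, and Cdkn2d 3.48-fold higher in FO (limma adjusted p between 0.00218 and 0.00644). Of 46 DNA replication genes, 5 (10.9%) were called higher in MZ and 2 (4.35%) higher in FO, near the 7.41% and 4.62% of all genes. The median of the list was -0.23. Tyms, which makes thymidylate, had 60.9 and 59 normalized counts in FO and 163 and 258 in MZ and was 3.38-fold higher in MZ. Pold1, the catalytic subunit of DNA polymerase delta, had 6044 and 5088 normalized counts in FO and 2855 and 2770.3 in MZ and was 1.97-fold higher in FO (limma adjusted p of 0.00638 and 0.00113). Without WT FO replicate 1 or WT MZ replicate 2 the MZ count of the E2F list was 3, and that of the replication list 2 and 3. The FO count of the E2F list was 1 without WT FO replicate 1 or WT MZ replicate 1.

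Myc, which drives growth in B cells, had 7652 and 5852 normalized counts in FO and 31481 and 17298 in MZ and was 3.49-fold higher in MZ (log2 difference -1.80, SE 0.33, limma adjusted p = 0.00926). Of 52 genes of Myc and ribosome biogenesis, 7 (13.5%) were called higher in MZ and 1 (1.92%) higher in FO, beside 7.41% and 4.62% of all genes. In this list 43 lay below 0, with a median of -0.16. Mxd4, which competes with Myc for a shared partner, had 3704 and 3392 normalized counts in FO and 8224 and 8252 in MZ and was 2.32-fold higher in MZ, as was Rrp1b, a nucleolar protein, with 697 and 720.2 normalized counts in FO and 1448 and 1326 in MZ (1.95-fold; limma adjusted p of 0.000251 and 0.000833). Small differences in 1 direction were common among the genes of translation and respiration. Of 85 cytosolic ribosomal proteins, 78 lay below 0 with a median of -0.25, but 3 (3.53%) were called, each higher in MZ, beside 7.41% of all genes. Rplp0 was among them with 18739 and 16602 normalized counts in FO and 29021 and 26978 in MZ. All 11 mitochondrially encoded genes lay below 0, with a median of -0.33, and limma, edgeR and DESeq2 called 0, with 4 at an unadjusted limma p under 0.05. For 89 respiratory chain subunits encoded in the nucleus the median was -0.08, and for 48 proteasome subunits it was 0.03, with 0 members called of either by limma, edgeR or DESeq2, and 6 and 5 members at an unadjusted limma p under 0.05. The median of the proteasome subunits turned to -0.02 when reads were scaled by library totals. The ribosomal protein genes took 3.32% and 2.86% of the reads on genes in the FO libraries and 3.94% and 3.71% in the MZ libraries. The call of Rplp0 was lost without WT FO replicate 2 (difference of -0.58), and the count of ribosomal proteins called was 0 without that library, 1 without WT MZ replicate 1 and 6 without WT FO replicate 1.

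Several genes of cholesterol synthesis and transport were called higher in FO. Of 42 genes of cholesterol and lipid synthesis, 11 were called higher in FO, against 4.62% of all genes, and 2 higher in MZ, with a median of 0.21. Hmgcs1, which makes the precursor of mevalonate, had 867 and 1209 normalized counts in FO and 454 and 578 in MZ. Sqle, a rate-limiting oxidase of the pathway, had 611 and 709.7 normalized counts in FO and 266 and 358 in MZ, and Lss, which closes the sterol rings, had 834 and 831 normalized counts in FO and 545 and 485 in MZ. Abca1, which exports cholesterol, had 6577 and 6714 normalized counts in FO and 2249 and 3206 in MZ, and Mylip, a ubiquitin ligase induced by sterol sensors, had 4082 and 4906 normalized counts in FO and 1972 and 2709 in MZ. The folds in favor of FO were 2 for Hmgcs1, 2.13 for Sqle, 1.62 for Lss, 2.47 for Abca1 and 1.94 for Mylip (limma adjusted p between 0.00133 and 0.00932). The called members thus held enzymes that make cholesterol and, with Abca1, an exporter of it. Scd2, a desaturase of fatty acids, lay on the other side, at 1736 and 2240.5 normalized counts in FO and 5548 and 7049 in MZ, 3.17-fold higher in MZ (limma adjusted p = 0.000807). The FO count was 5 without WT FO replicate 2 or WT MZ replicate 1, and 6 with limma fitted on the 4 WT libraries alone.

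Sterol genes are known to answer to SREBP factors through sterol response elements. The 250 bases before the RefSeq start of Hmgcs1 are shown, with matches to TCACNCCAC and CCAAT on both strands in capitals.
Hmgcs1, chr13:119690101-119690350, plus strand: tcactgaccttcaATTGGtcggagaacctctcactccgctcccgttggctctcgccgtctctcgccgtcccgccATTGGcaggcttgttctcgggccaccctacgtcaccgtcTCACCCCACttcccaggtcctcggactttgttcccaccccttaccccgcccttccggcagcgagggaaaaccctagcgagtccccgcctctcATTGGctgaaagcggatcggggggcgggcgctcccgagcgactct
The match TCACCCCAC began 137 bases before the start, and CCAAT matches began 237, 176 and 45 bases before it. TCACNCCAC was found in 1 of the 31 genes of the list with a promoter in the table (3.23%), which was Hmgcs1, and in 1.23% of the 9764 tested genes found. CCAAT was found in 23 of the 31 (74.2%) and in 6 of the 7 of these that were called higher in FO (85.7%), beside 40.7% of tested genes.

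Most lysosomal and secretory genes were not called. Of 51 genes of lysosome and autophagy, 8 were called higher in MZ (15.7% beside 7.41% of all genes) and 1 higher in FO, 42 were not called, and the median was -0.04. The FO count was 0 without WT FO replicate 2 or WT MZ replicate 1. Ctsb, the protease cathepsin B, had 2292 and 2441 normalized counts in FO and 5681 and 5615 in MZ. Psap, the precursor of the saposins that help to degrade and load lipids, had 13172 and 15170.5 normalized counts in FO and 33019.8 and 35934 in MZ, and Grn, progranulin, had 776 and 1145 normalized counts in FO and 4081 and 4937 in MZ. Grn was 4.76-fold, Psap 2.44-fold and Ctsb 2.39-fold higher in MZ (limma adjusted p between 0.000118 and 0.00047). Of 63 genes of endoplasmic reticulum folding and secretion, 4 were called, each higher in MZ, a share of 6.35% near the 7.41% of all genes, with a median of -0.05. Mzb1 (above) was among them. Without WT MZ replicate 1 or WT MZ replicate 2, 1 member was called higher in FO. Pdia4, a disulfide isomerase, had 4762 and 5088 normalized counts in FO and 27967 and 29442 in MZ, and Edem1, which sends misfolded proteins to degradation, had 3971 and 4062 normalized counts in FO and 7591 and 7792 in MZ. Pdia4 was 5.83-fold and Edem1 1.91-fold higher in MZ (limma adjusted p of 3.01e-05 and 0.000393). Hspa5, the main chaperone of this compartment, had 28628 and 17161 normalized counts in FO and 35300.5 and 22284 in MZ, with overlap between the subsets.

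Genes of apoptosis were called on both sides. Of 19 members of the Bcl2 family, 2 (10.5%) were called higher in FO and 4 (21.1%) higher in MZ, beside 4.62% and 7.41% of all genes. Bmf, a BH3-only protein that promotes apoptosis, had 1932 and 2190.1 normalized counts in FO and 765 and 732 in MZ and was 2.75-fold higher in FO. Bid, another BH3-only protein, had 1212 and 1555 normalized counts in FO and 4186 and 3933 in MZ and was 2.96-fold higher in MZ (limma adjusted p of 0.000251 and 0.00041). Bcl2, which protects B cells, had 3264 and 4078 normalized counts in FO and 2783 and 4006 in MZ, with overlap between the subsets. Bnip3, which promotes death and mitophagy, was the other member called higher in FO, with 79.8 and 70.4 normalized counts in FO and 27.9 and 27.2 in MZ. The called members that block apoptosis lay on the MZ side, Bcl2a1b with 91.8 and 90.4 normalized counts in FO and 304 and 185 in MZ and Bcl2a1d with 21 and 29.5 normalized counts in FO and 80.9 and 77 in MZ (2.59-fold and 3.09-fold, limma adjusted p of 0.00905 and 0.027), and reads shared between these copies make each uncertain. The call of Bcl2a1d was lost without WT FO replicate 1 or any MZ library (limma adjusted p between 0.0566 and 0.123), and that of Bnip3 without WT FO replicate 1 (limma adjusted p = 0.0618). The MZ count was 2 without WT FO replicate 1 or WT MZ replicate 1, and the FO count 1 without WT FO replicate 1.

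**Figure D4:**
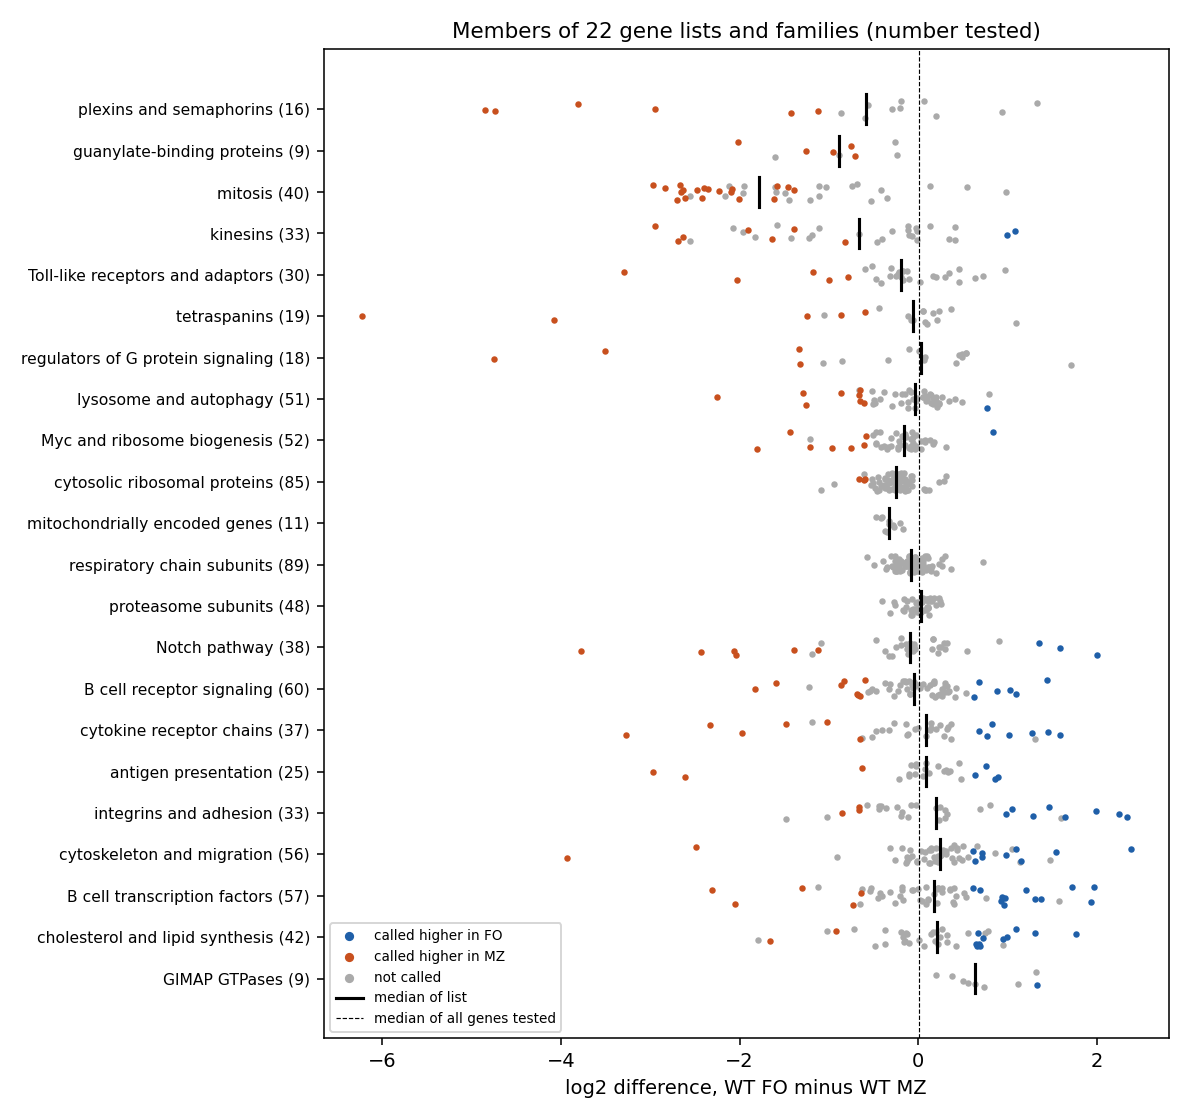
Each point is a tested member of 1 of 22 gene lists and families, at its log2 difference of FO minus MZ, in blue where called higher in FO, in orange where called higher in MZ and in grey where not called. The black bar is the median of the list and the dashed line the median of all genes tested (0.0048), and the mitosis list has the lowest median at -1.78, while ribosomal, respiratory and proteasome genes lie close together near 0.

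Several of the largest differences were in genes that were close to silent in FO. Adam28, a membrane protease of lymphocytes, had 12 and 7.61 normalized counts in FO and 718 and 619 in MZ. Tmod2, which caps actin filaments, had 0.998 and 9.51 normalized counts in FO and 218 and 307 in MZ. Ube2e2, a ubiquitin conjugating enzyme, had at most 3 reads in each FO library, with 0.998 and 0.951 normalized counts in FO and 169.5 and 102 in MZ, and was at least 46.5-fold higher in MZ when the FO libraries are set to 3 reads. Drd5, a dopamine receptor, had 2.99 and 0 normalized counts in FO and 158 and 76.1 in MZ, at least 40-fold on the same basis. No FO gene reached such folds with a mean of 100 normalized counts. The largest there was Ryr2 (above), followed by the long non-coding RNAs Gm39383, with 81.8 and 157 normalized counts in FO and 6.74 and 8.15 in MZ, and Gm11690, with 199 and 284 normalized counts in FO and 11.6 and 34.4 in MZ. Lifr, the receptor for leukemia inhibitory factor, had 263 and 213 normalized counts in FO and 15.4 and 27.2 in MZ, 11.1-fold higher in FO.

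Among the genes with the smallest p on the FO side, those given here had high levels and folds between 2.44 and 4.77. Cacna1i (above), also among them, was 7.69-fold higher in FO. Pgap1, which remodels GPI anchors, had 9879 and 8182 normalized counts in FO and 2439.6 and 2599 in MZ, and Mapk11, the p38 beta kinase, had 4584 and 4055 normalized counts in FO and 800.4 and 1019.8 in MZ. Sorl1, a sorting receptor, had 22987 and 22426 normalized counts in FO and 8876 and 9722 in MZ. Cbx7, a Polycomb protein, had 11826 and 12039 normalized counts in FO and 4441 and 4945 in MZ, and B3gnt5, a glycosyltransferase of glycolipids, had 12380.5 and 10899.8 normalized counts in FO and 4043 and 3604 in MZ. The folds in favor of FO were 4.77 for Mapk11, 3.57 for Pgap1, 3.04 for B3gnt5, 2.55 for Cbx7 and 2.44 for Sorl1 (limma adjusted p between 8.36e-05 and 0.000163). On the MZ side, Tbc1d9, a regulator of Rab GTPases that is also on the B-1 cell list, had 96.8 and 81.8 normalized counts in FO and 2610.1 and 2107 in MZ. Zc3h12c, a zinc finger protein of the Regnase family, had 279 and 275 normalized counts in FO and 4729 and 3508 in MZ, and Dph5, an enzyme that makes diphthamide, had 696 and 774 normalized counts in FO and 4868 and 4410.4 in MZ. Tbc1d9 was 26.1-fold, Zc3h12c 14.6-fold and Dph5 6.31-fold higher in MZ (limma adjusted p between 7.51e-06 and 2.22e-05). I830077J02Rik had the smallest p of all genes, at 51.9 and 61.8 normalized counts in FO and 3494 and 3632 in MZ, with no overlap. Of the 12 markers of B-1 cells, 3 were called higher in MZ, Tbc1d9 among them, a share of 25% beside 7.41% of all genes, and 9 lay below 0, with a median of -0.55. Their sums were 4088 and 4416 in FO and 10642 and 9701 in MZ (normalized counts), with no overlap, and their part in the results was not tested. Cd5, the surface marker that defines many B-1 cells, had 25.9 and 62.8 normalized counts in FO and 66.5 and 137 in MZ and was not called. Without WT MZ replicate 2, 1 marker was called higher in FO.

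The same contrast in the cKO libraries, which share no sample with the WT comparison, gave the same sign for 681 of the 682 genes called higher in WT FO and for 1093 of the 1094 called higher in WT MZ. The same sign was found in 82.5% of the 12985 genes not called in WT. The median difference of the genes called higher in WT FO was 1.08 in WT and 1.09 in cKO, and of those called higher in WT MZ -1.49 and -1.44. Plxnd1 had 247 and 219 in FO and 7217 and 7765 in MZ of the cKO, a difference of -5.00 beside -4.74 in WT, and Bach2 had 9468 and 8345 in FO and 2296 and 2417 in MZ of the cKO, 1.92 beside 1.97 (normalized counts and log2 differences). The test of the difference between the genotypes called 0 genes by limma, with 94 genes at an unadjusted p under 0.05, and was run with no other tool.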

How the data were processed

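RNA-seq of total RNA from sorted WT FO and MZ B cells was analysed together with the 4 cKO libraries, and the 8 ATAC-seq samples were not analysed here. Ribosomal RNA had been removed and single-end reads of 50 bases sequenced. The authors deposited 1 table of normalized counts, a signal in which each whole read count is divided by the size factor of its library. The submitters' processing notes name HISAT2, featureCounts, HTSeq, DESeq2 and the build mm10, while versions, annotation and strand setting are not given in the sources used here, so overlapping, antisense and near-identical genes are uncertain. From these steps 100.0% of the values came out as whole reads (tolerance 0.0001), which gave 24467420 to 25083552 reads on genes per WT library. No intervals for counting error are given, since the spread between libraries was tested.

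Limma 3.58.1 (R 4.3.3) was fitted on log2(normalized count + 1) to the 14761 genes with a mean of at least 10, with 4 groups in 1 fit, a trend in the variance and the contrast WT FO minus WT MZ. The 4 cKO libraries enter that contrast only through the shared spread. A gene was called at a p of at most 0.05 after Benjamini-Hochberg adjustment and a difference of at least 1.5-fold. A fold of a gene with at most 3 reads in each library of the lower group is given as a bound against 3 reads. Gene positions are from GENCODE M21 (GRCm38), and promoters from RefSeq (GRCm38.p6), which held 9764 of the 14759 symbols tested. Genes named are the markers, those with the 20 smallest p and the 10 largest differences on each side, and for each list up to 6 called members and 4 high members not called, unless said otherwise, and a few genes that this rule would name are not reported here. The members and lists were chosen with earlier results of these data known, and lists are described by counts and medians, with no test. edgeR 4.0.16 and DESeq2 1.42.0 on the recovered reads, other normalizations, pseudocounts, filters and cutoffs, and fits without each library were tried. The contrast of WT FO and WT MZ on the 8 libraries was checked with limma, edgeR and DESeq2 on simulated counts. These were drawn independently for each library. The test of the genotype difference and the other alternative fits were not simulated.

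Replicates 1 and 2 share a number in the labels, but nothing says that it marks a mouse or a day. The deviations of same-numbered WT libraries correlated at 0.59 and those of the cKO libraries at -0.0015.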

Additional observations from a re-analysis of the deposited data

How the results depend on the processing

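All normalizations and tools kept the share of calls higher in FO between 33.5% and 43.7%, and moved the median of all genes by at most 0.053 on the log2 scale. The calls higher in FO and higher in MZ numbered 378 and 636 with limma on the 4 WT libraries alone. That fit has fewer samples and takes its spread from the WT libraries only. Without the fold cutoff 1108 genes were higher in FO, and with a 2-fold cutoff 390. With each library left out in turn the calls ranged from 488 to 661 (FO) and from 732 to 1026 (MZ), where the lone library of a group is assumed to vary like the other groups. With the replicate number as a block, 947 and 1416 genes were called, and Klf2, Cxcr4 and Cd5 passed. The libraries share only that number, so the block is given as an alternative and is not read as a paired result.

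On the 4 WT libraries alone, 29 of the 213 named genes lost their calls, among them Bcl2a1b, Bcl2a1d, Bnip3, Fkbp11, Ccr7, Cd80, Gbp7, Hes5, Hmgcs1, Ighd, Mylip, Pde4d, Prdm1, S1pr1, S1pr4, Sdc1, Tlr7, Zap70, Cdh5 and the named mitosis genes other than Mybl2, and the cause was not tested. DESeq2 on the 4 WT libraries lost Cd68, Ighd, Kif11, Mki67, Top2a and Trac, the fit without a filter lost Fkbp11, Ube2c and all of these but Ighd, and edgeR lost Kif11. Of genes that were not called, the sign turned without 1 library for 9, with log2 differences from -0.13 to 0.39 for Bcl2, -0.19 to 0.093 for Cd22, -0.62 to 0.13 for Cxcr5, -0.71 to 0.030 for Hspa5, -0.62 to 0.033 for Ighm, -1.08 to 0.39 for Irf4, -2.25 to 1.34 for Jchain, -0.55 to 1.02 for Rel and -0.10 to 0.60 for Syk. The other differences named kept their sign under every alternative run, apart from Derl3 and Ighg2b, for which this is not reported here.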

Other observations

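Several gene families that the report does not describe also held members on either side. Of 200 solute carriers, 28 (14%) were called higher in MZ and 10 (5%) higher in FO, beside 7.41% and 4.62% of all genes. Their median was -0.05 beside 0.0048 over all genes. Slc39a4, an importer of zinc, had 24 and 22.8 normalized counts in FO and 186 and 206 in MZ and was 8.08-fold higher in MZ. Slc29a3, a nucleoside transporter of lysosomes, had 1051 and 1075 normalized counts in FO and 2782 and 3039 in MZ and was 2.73-fold higher in MZ, and Slc20a2, a phosphate transporter, had 661 and 678 normalized counts in FO and 1711 and 1528 in MZ. Slc4a11 had 447 and 324 normalized counts in FO and 37.6 and 47.1 in MZ and was 8.87-fold higher in FO (limma adjusted p between 0.000225 and 0.000251). The FO count was 6 without WT MZ replicate 1.

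Phosphodiesterases, which break down cyclic nucleotides, were split, with 3 of 19 (15.8%) called higher in FO and 4 (21.1%) higher in MZ. Of all genes, 4.62% and 7.41% were called. Pde4a had 306 and 391 normalized counts in FO and 3275 and 2749 in MZ, Pde4d had 365 and 107 normalized counts in FO and 2784 and 1334 in MZ, and Pde8a had 424 and 247 normalized counts in FO and 1538 and 998 in MZ. Pde4a was 8.65-fold, Pde4d 9.72-fold and Pde8a 3.82-fold higher in MZ (limma adjusted p between 6.49e-05 and 0.00723). The FO count was 0 without WT FO replicate 1 and 1 without WT MZ replicate 2. Of 22 protein tyrosine phosphatases, 5 (22.7%) were called, each higher in MZ, beside 7.41% of all genes. Ptpn14 had 592 and 475 normalized counts in FO and 5367 and 4448 in MZ (9.2-fold), Ptprj, a receptor phosphatase that acts on Src kinases, had 5100.5 and 4630.3 normalized counts in FO and 10129 and 9763 in MZ (2.05-fold), and Ptprs had 385 and 509.9 normalized counts in FO and 1119 and 1327 in MZ (2.75-fold). Ptprc, the common leukocyte antigen CD45, had 53318 and 58015 normalized counts in FO and 45299.6 and 46850.4 in MZ and did not pass. Among dual-specificity phosphatases, which act on MAP kinases, Dusp3 had 727 and 508 normalized counts in FO and 90.5 and 122 in MZ and was 5.73-fold higher in FO, and Dusp16 had 1197 and 782 normalized counts in FO and 6180.4 and 3469 in MZ and was 4.78-fold higher in MZ (limma adjusted p of 0.00131 and 0.00357).

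All 9 GIMAP GTPases, which act in lymphocyte survival, lay above 0, with a median of 0.64, but 1 (11.1% beside 4.62% of all genes) was called. It was Gimap3, with 9085 and 11261 normalized counts in FO and 3548 and 4524 in MZ (2.52-fold higher in FO, limma adjusted p = 0.000905). With WT FO replicate 1 left out 5 were called, and with WT MZ replicate 2 left out 3. Of 33 kinesins, 7 (21.2%) were called higher in MZ and 2 (6.06%) higher in FO, beside 7.41% and 4.62% of all genes. Among them were Kif21b, a motor of microtubule ends, with 22496 and 19839.8 normalized counts in FO and 10092 and 9866 in MZ (2.12-fold higher in FO), and Kif13a, a motor of endosomes, with 104 and 144 normalized counts in FO and 409 and 356 in MZ (3.11-fold higher in MZ). The MZ count of the kinesins, a family that shares members with the mitosis list, was 2 without WT FO replicate 1 and 3 without WT MZ replicate 2. Of 33 glucose entry and glycolysis genes, 4 (12.1%) were called higher in MZ and 1 (3.03%) higher in FO, beside 7.41% and 4.62% of all genes. The transporter Slc2a6 of this list had 542 and 588 normalized counts in FO and 104 and 192 in MZ (3.97-fold higher in FO). Hk2, which traps glucose in the cell, had 250.5 and 284 normalized counts in FO and 534 and 517 in MZ (1.97-fold higher in MZ). The MZ count of that list, 4, was 2 without WT FO replicate 1, WT MZ replicate 1, WT MZ replicate 2 or either cKO MZ library.

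Of 101 kappa variable segments, 8 (7.92%) were called higher in FO and 1 (0.99%) higher in MZ, with a median of 0.29. Of 96 heavy chain variable segments, 1 (1.04%) was called higher in FO and 3 (3.13%) higher in MZ. The heavy chain shares were under the 4.62% and 7.41% of all genes. Igkv10-96 had 1698 and 1735 normalized counts in FO and 936 and 1090.4 in MZ (1.7-fold higher in FO), and Ighv6-3 had 357 and 475 normalized counts in FO and 888 and 1117 in MZ (2.41-fold higher in MZ). Reads of 50 bases can be shared between segments, so single segments are uncertain, and the counts ranged from 2 to 10 for kappa segments higher in FO and from 1 to 7 for heavy chain segments higher in MZ with each library left out in turn. The FO count of heavy chain segments was 10 without WT MZ replicate 2. In both subsets replicate 2 held a larger share of reads on immunoglobulin genes than replicate 1 (1.35% and 1.79% in FO, 1.24% and 1.86% in MZ).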
